A study of Mus musculus with 9 samples.

Results

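p53 (gene Trp53) and 6 of its target genes, Mdm2, Ccng1, Phlda3, Bbc3, Sesn2 and Zmat3, were followed in spleen myeloid-derived suppressor cells (MDSCs) of tumour-bearing mice. They are 7 of the 23284 gene symbols measured, taken by symbol. MDSCs are immature myeloid cells that accumulate in cancer and restrain T cells. RNA from 9 libraries was sequenced, 3 in each of 3 groups, all from the spleens of mice carrying a spindle cell tumour (SCT) and all given an age of 3 weeks in the labels, which the study's methods give as the time between tumour inoculation and tissue collection. The groups were polymorphonuclear MDSCs (PMN-MDSCs, separated as Ly6G+ cells) from wild-type (WT) C57BL/6J mice, monocytic MDSCs (Mo-MDSCs, separated as Ly6G- Gr-1+ cells) from WT C57BL/6J mice, and Mo-MDSCs of the p16/p21-DKO genotype (strain C57BL/6), whose mice lack both Cdkn2a-encoded p16Ink4a and Cdkn1a-encoded p21 in the whole animal. PMN-MDSCs of DKO mice were not analysed here. The labels do not say whether replicates came from separate animals, so p-values measure the spread between these libraries, which may be technical.

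p53 is a transcription factor that is held at a low level by the ubiquitin ligase Mdm2 and stabilised by DNA damage and other stress. It then binds DNA as a tetramer and switches on genes for cell cycle arrest, cell death, DNA repair and metabolism, among them Mdm2 itself, which closes a feedback loop. p21 is the best-known arrest target of p53, and DKO mice are meant to lack this effector of the pathway. p53 is controlled mainly at the protein level, and the level of Trp53 RNA does not measure its activity.

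The p53 consensus is built from copies of a palindromic 10-base unit, taken here as an abutting pair. The pair of central bases of the unit is A or T, set between a C and a G. To show what the members carry next to their start sites, the RefSeq windows from 250 bases before to 50 bases after each start (GRCm38.p6, 32851 windows) were searched for the closest 20-base match. The unit reads the same on both strands, so 1 pass covers both. Of the members, 6 had windows, 8 in all since Bbc3 has 3 starts. Cdkn1a is shown for comparison. The windows with at most 3 mismatches are printed 5′ to 3′ on the gene's strand, with the 20-base match in capitals and 5 flanking bases on either side:
Ccng1, chr11:40755457-40755486, minus strand: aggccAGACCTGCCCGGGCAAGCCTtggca
Cdkn1a, chr17:29090923-29090952, plus strand: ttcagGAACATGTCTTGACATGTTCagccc
Bbc3, chr7:16309481-16309510, plus strand: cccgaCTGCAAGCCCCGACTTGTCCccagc
Trp53, chr11:69580279-69580308, plus strand: cggaaGGACTTGCCCTTACTTGTTAtggcg

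The Ccng1 match began 195 bases before its start. The Cdkn1a match began 51 bases before the first of its RefSeq starts. Each differed from the consensus at 1 of 20 bases. Matches with at most 1 mismatch were present in 0.0883% of all windows. The Bbc3 match lay in an intron of the GENCODE gene model, before the first of the RefSeq starts, and it and the Trp53 match had 3 mismatches, a level reached by 6.29% of all windows. The closest matches in the windows of Mdm2, Phlda3 and Sesn2 had 5 mismatches, and 76.6% of all windows held a match with 5 or fewer. The closest matches at the other Cdkn1a start and at another Bbc3 start also had 5, and that at the last Bbc3 start had 6. A single exact 10-base unit was present in the windows of Mdm2, Ccng1 and Trp53, and in 8.36% of all windows. The Mdm2 unit began 186 bases before the start:
Mdm2, chr10:117710930-117710949, minus strand: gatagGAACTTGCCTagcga

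These are matches of letters only. Sites outside the windows, and pairs of units with other bases between them, were not searched.

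The deleted genes were examined first. The level of Cdkn1a was 8.18, 6.46 and 8.04 FPKM (fragments scaled to transcript length and library size) in the WT Mo-MDSC libraries and 5.55, 8.52 and 6.00 FPKM in the libraries labelled DKO. The groups overlapped, and the difference of -0.19 on the log2 scale did not pass the test (SE 0.18, adjusted p = 0.637, limma). Cdkn2a was at 0.718, 0.772 and 0.432 FPKM in WT Mo-MDSCs and at 0.258, 0.586 and 0 FPKM in the libraries labelled DKO, and it was below the filter. A value per gene symbol sums reads from parts of a locus that a deletion may leave in place, and for Cdkn2a it also sums the p16Ink4a and p19Arf transcripts. These values therefore do not check the deletion, and the third group is called DKO-labelled below.

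The libraries also held RNA of cells other than those they are named for, which bears on every comparison of these bulk samples, where fewer cells of a type and less RNA per cell cannot be told apart. The summed level of 8 neutrophil markers (Ly6g was not analysed here) was 98140 to 231200 FPKM in PMN-MDSCs, 17830 to 61780 FPKM in WT Mo-MDSCs and 7009 to 17050 FPKM in DKO-labelled Mo-MDSCs. The summed level of 7 monocyte markers was 1331 to 1495, 2472 to 2765 and 1942 to 2251 FPKM in the same order, with Ccr2, the defining chemokine receptor, at 2.36 to 2.51 FPKM in PMN-MDSCs and 280.7 to 361.5 FPKM in WT Mo-MDSCs. B cell markers (5 genes) summed to 1434 to 1635, 1020 to 1148 and 1092 to 1373 FPKM, and macrophage markers (7 genes) to 5141 to 6158, 3217 to 4154 and 3469 to 5270 FPKM, so that both were present throughout and higher in PMN-MDSCs than in WT Mo-MDSCs without overlap. Erythroid markers (7 genes) summed to 2610 to 3032 FPKM in the libraries numbered replicate 2 and to 1297 to 1992 FPKM in the other libraries. Replicate 1 of each group carries a library identifier whose number is lower than, and set apart by a gap from, those of replicates 2 and 3. The labels do not say what the gap stands for. Values within replicates 2 and 3 alone are therefore given beside the main results.

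The members spanned a wide range of levels, and 6 of the 7 were at or above 1 FPKM in every library. FPKM is scaled to transcript length, so levels can be set side by side between genes. Trp53 was the most abundant, with a mean of 53.7 ± 2.94 FPKM in WT Mo-MDSCs (SD, n = 3), followed by Mdm2 at 30.4 ± 2.92 and Ccng1 at 28.3 ± 3.25 FPKM. Mdm2 and Ccng1 overlapped in these libraries. Sesn2 at 10.8 ± 1.26 and Bbc3 at 8.48 ± 1.04 FPKM came next, then Zmat3 at 2.30 ± 0.0439 FPKM. Phlda3 was lowest, at 0.385 ± 0.179 FPKM, and was the only member under the filter, which asked for 1 FPKM or more in 3 or more of the 6 libraries compared. In PMN-MDSCs the order differed in that Sesn2, at 32.2 ± 3.08 FPKM, stood level with Ccng1 at 32.0 ± 3.62 FPKM.

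**Figure D1:**
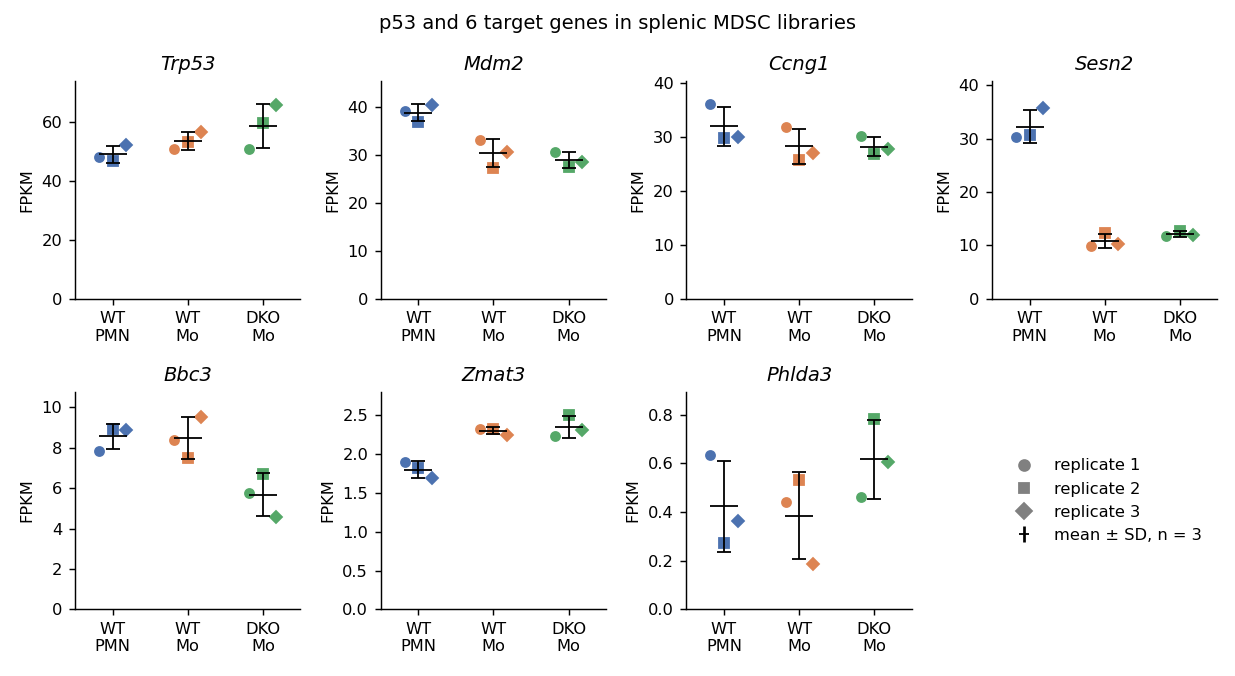
FPKM (y axis, linear from 0) of the 7 members in each of the 9 libraries, with points for replicates and bars for the mean ± SD of each group (n = 3). Sesn2 sits between 30.3 and 35.8 FPKM in PMN-MDSCs and between 9.95 and 12.7 FPKM in the other libraries, and Bbc3 is lower in each DKO-labelled library than in any other.

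Because low FPKM values rise in steps worth 1 read, the relative depth of the libraries could be read from them, and it ranged from 0.809 (PMN-MDSC replicate 1) to 1.31 (DKO-labelled replicate 2) relative to WT Mo-MDSC replicate 1. With these depths, the values of 6 members came out as whole numbers of reads to within 0.005 read in all 9 libraries. They are the smallest such numbers, and a common multiple is possible. On that count Mdm2 rested on 973 to 1250 reads per library, Ccng1 on 1041 to 1254, Sesn2 on 264 to 959, Zmat3 on 126 to 270, Bbc3 on 106 to 217 and Phlda3 on 3 to 14. Trp53 did not come out whole, nor did Cdkn1a, and the reason was not tested. GENCODE lists a pseudogene, Trp53-ps on chromosome 17, which has no row of its own and may share reads with Trp53, so that its level is less certain. GENCODE also lists a transcript on the same strand inside Sesn2 (Gm12981), which has no row of its own.

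The first comparison asked whether p53 target expression differs in Mo-MDSCs that lack p16Ink4a and p21. None of the 6 members tested passed an adjusted p below 0.05 in the DKO-labelled libraries (limma, adjusted over 11451 genes), where 0.253% of all genes tested did (0.0873% lower), and 1 member, Bbc3, had an unadjusted p below 0.05, as did 15% of all genes. Bbc3 was lower in every DKO-labelled library than in any WT library. The other 6 members overlapped between the groups. None was higher without overlap, as 7.96% of all genes were. None was higher by a mirror image, added here, of the study's fold threshold with an unadjusted p below 0.05, as 2.57% of all genes were.

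p53 itself was not distinguishable between the groups. Trp53 (chr11:69580359-69591873, plus strand, GRCm38) was at 50.9, 53.4 and 56.7 FPKM in WT and at 51.0, 59.6 and 65.9 FPKM in DKO-labelled Mo-MDSCs. The groups overlapped, and the log2 difference was 0.13 (95% interval -0.13 to 0.38, adjusted p = 0.607, limma). Mdm2 (chr10:117688875-117710758, minus strand), the ligase that both restrains p53 and is induced by it, was at 33.2, 27.4 and 30.7 FPKM in WT and at 30.8, 27.6 and 28.6 FPKM in DKO-labelled cells. All 3 DKO-labelled values lay inside the WT range, with a log2 difference of -0.07 (95% interval -0.29 to 0.16, adjusted p = 0.769).

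Among the targets for arrest and growth control, Ccng1 (chr11:40748552-40755311, minus strand), which encodes cyclin G1, an atypical cyclin that acts back on p53 through Mdm2, was at 32.0, 25.8 and 27.0 FPKM in WT and at 30.1, 26.9 and 27.7 FPKM in DKO-labelled cells, with a log2 difference of 0.00 (95% interval -0.24 to 0.24, adjusted p = 0.994). Differences of more than about 0.24 in either direction lay outside this interval. Zmat3 (chr3:32334792-32366014, minus strand), which encodes an RNA-binding zinc finger protein, was at 2.33, 2.33 and 2.25 FPKM in WT and at 2.23, 2.51 and 2.31 FPKM in DKO-labelled cells (log2 difference 0.03, 95% interval -0.30 to 0.36, adjusted p = 0.935).

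Bbc3 (chr7:16308393-16318205, plus strand) encodes Puma, a BH3-only protein that triggers mitochondrial apoptosis. Its level was 8.40, 7.48 and 9.55 FPKM in WT Mo-MDSCs and 5.77, 6.73 and 4.57 FPKM in DKO-labelled Mo-MDSCs. The highest DKO-labelled value was below the lowest WT value, as was the case for 12.9% of all genes tested. The log2 difference was -0.58 (SE 0.16, 95% interval -0.95 to -0.20), a fold of 0.67, with an unadjusted p of 0.00782 and an adjusted p of 0.202 in limma. The exact two-sided permutation test gave p = 0.1, the smallest that 3 against 3 samples allow. By the fold and unadjusted p thresholds of the study (under 0.75-fold with p below 0.05) Bbc3 counted as lower, as did 4.43% of all genes. The difference had the same direction in replicates 2 and 3 alone (-0.60, adjusted p = 0.524).

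In reads, Bbc3 went from 556 in the 3 WT libraries to 398 in the 3 DKO-labelled libraries, a depth-corrected ratio of 0.675 with an exact 95% interval of 0.592 to 0.769 that covers counting error only. The counting error of the log2 difference was 0.095, against an SE of 0.16 between libraries. Bbc3 was at 7.87, 8.95 and 8.88 FPKM in PMN-MDSCs, a range that overlapped that of WT Mo-MDSCs and lay above all DKO-labelled values. The summed neutrophil markers moved with Bbc3: 6 of 8 were lower in DKO-labelled than in WT Mo-MDSCs by the study's thresholds, as were 4.43% of all genes. Mmp8 was higher by their mirror image, and 4 of 7 monocyte markers were lower by the study's thresholds. Of 4 progenitor markers tested, 2 were lower by the study's thresholds, Elane and Prtn3, while Kit had a positive difference (0.23 on the log2 scale). The sum of the 5 listed was 21.9 to 35.6 FPKM in WT and 7.91 to 14.99 FPKM in DKO-labelled cells. None of the 3 sums overlapped between the groups. Other lists went the other way: all 7 erythroid, 7 macrophage and 5 B cell markers had positive differences. By the mirror image of the thresholds, 1 macrophage marker, Spic, was higher (0.60 on the log2 scale), as were 2.57% of all genes. No erythroid or B cell marker was. By the same thresholds, 2 T and NK cell markers and 1 platelet marker were higher, and 1 T and NK cell marker and 1 dendritic cell marker were lower. At an adjusted p below 0.05 no marker of any of these lists was called, in either direction. The part of these markers in the Bbc3 difference was not tested.

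Sesn2 (chr4:132492032-132510501, minus strand), which encodes sestrin 2, a stress-induced protein that restrains mTORC1, was at 9.95, 12.2 and 10.2 FPKM in WT and at 11.7, 12.7 and 12.0 FPKM in DKO-labelled Mo-MDSCs. The groups overlapped, with a log2 difference of 0.17 (95% interval -0.07 to 0.42, adjusted p = 0.473). Phlda3 (chr1:135766119-135769136, plus strand), whose product competes with Akt for membrane lipids, was at 0.439, 0.531 and 0.185 FPKM in WT and at 0.461, 0.783 and 0.605 FPKM in DKO-labelled cells. These values stand for 18 reads in WT and 31 reads in DKO-labelled libraries, a depth-corrected ratio of 1.62 with an exact 95% interval of 0.881 to 3.08, so a difference was not detectable at this depth. Without the filter the log2 difference was 0.61 (SE 0.37, adjusted p = 0.568).

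**Figure D2:**
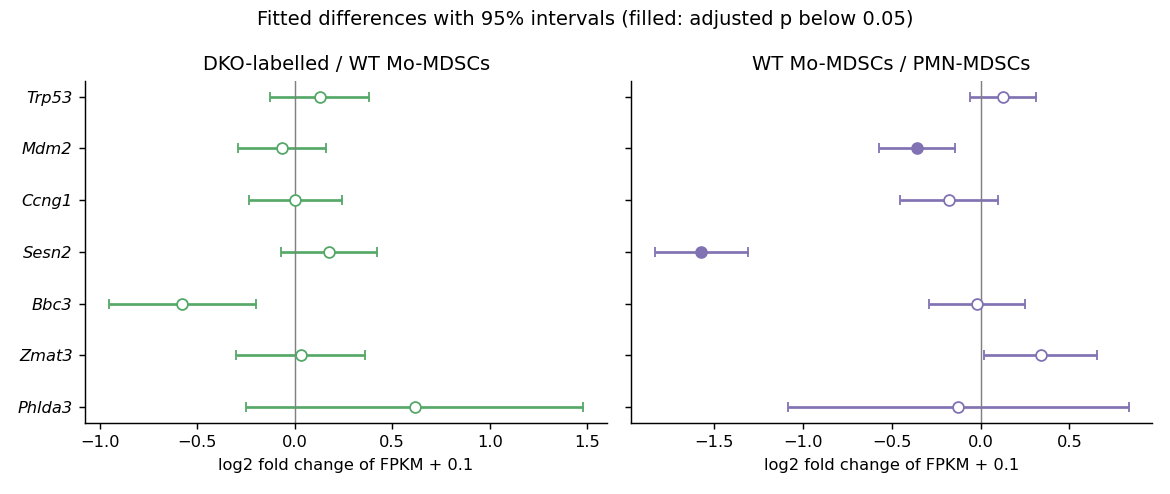
Log2 fold change of FPKM + 0.1 (x axis) of each member with its 95% interval from limma, for DKO-labelled against WT Mo-MDSCs (left) and WT Mo-MDSCs against PMN-MDSCs (right). Filled points passed an adjusted p below 0.05: none on the left, and Mdm2 and Sesn2 on the right.

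The rest of the pathway was read from 58 listed genes, of which 52 were tested in this comparison, in 7 groups by role. None passed an adjusted p below 0.05 (limma), 1 had an unadjusted p below 0.05, and 9 had groups that did not overlap, against 20.8% of all genes. Their median log2 difference was 0.06, beside -0.02 over all genes tested. The gene with the unadjusted p below 0.05 was Apaf1, the scaffold of the apoptosome, which is named here after its values were seen. It was at 22.4, 17.6 and 22.0 FPKM in WT and at 15.7, 17.3 and 15.7 FPKM in DKO-labelled cells (log2 difference -0.34, adjusted p = 0.243). Of the 11 death targets tested, 7 had a negative and 4 a positive difference, with a median of -0.11. Of the 10 genes for kinases and cofactors that activate p53, 9 had a positive difference, with a median of 0.19. None of the 10 passed the test or had an unadjusted p below 0.05. Over all 52 genes, 32 differences were positive and 20 negative.

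The second comparison asked how the p53 target genes differ between the monocytic and the polymorphonuclear MDSCs of WT mice. It shares the WT Mo-MDSC libraries with the first. Of the 6 members tested, 2 were called, Sesn2 and Mdm2, both lower in Mo-MDSCs, where 39.1% of all 11491 genes tested were called in either direction and 20.6% were called lower. An unadjusted p below 0.05 was reached by 3 members and by 48.3% of all genes. No member passed the study's threshold for cell types (over 2-fold with p below 0.05), as 3.55% of all genes did. By its mirror image, under 0.5-fold, which was added here, Sesn2 was lower, as were 6.65% of all genes.

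Sesn2 differed most. It was at 30.3, 30.6 and 35.8 FPKM in PMN-MDSCs, against 9.95, 12.2 and 10.2 FPKM in WT Mo-MDSCs. The lowest PMN-MDSC value was above every value in either Mo-MDSC group. The log2 difference was -1.57 (SE 0.11, 95% interval -1.84 to -1.31, adjusted p = 7.57e-05, limma), a fold of 0.336 in depth-corrected reads (2484 against 987 reads, exact 95% interval 0.312 to 0.362 for counting error). It was -1.56 in replicates 2 and 3 alone (adjusted p = 0.00425) and lay between -1.67 and -1.49 with each replicate left out in turn.

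Mdm2 was at 39.3, 37.0 and 40.5 FPKM in PMN-MDSCs and at 33.2, 27.4 and 30.7 FPKM in WT Mo-MDSCs. The groups did not overlap, as was so in this direction for 26.4% of all genes, and Mdm2 fell by 0.36 on the log2 scale (SE 0.091, adjusted p = 0.0195, limma). Its call was lost without PMN-MDSC replicate 1 (adjusted p = 0.052), PMN-MDSC replicate 3 (0.063), WT Mo-MDSC replicate 2 (0.058) or WT Mo-MDSC replicate 3 (0.055), and in replicates 2 and 3 alone (-0.41, adjusted p = 0.0507). Quantile normalisation (-0.21, adjusted p = 0.0874) and unmoderated variances (adjusted p = 0.0502) also ended it. The call held in the other 10 of 17 alternatives. A fit that blocked on replicate number gave the lowest adjusted p, 0.00282 (limma).

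Zmat3 was at 1.90, 1.82 and 1.69 FPKM in PMN-MDSCs, below all 3 WT Mo-MDSC values of 2.25 to 2.33 FPKM. The log2 difference of 0.34 (SE 0.14) had an unadjusted p of 0.0407 and an adjusted p of 0.0885 (limma), and 26.2% of all genes were likewise higher in Mo-MDSCs without overlap. It was called where the variances were not moderated (adjusted p = 0.0158) or were moderated without a trend (adjusted p = 0.0167). Ccng1, at 36.2, 29.9 and 30.0 FPKM in PMN-MDSCs, overlapped the WT Mo-MDSC values, with a log2 difference of -0.18 (adjusted p = 0.266). In both groups replicate 1 was the highest, and a fit that blocked on replicate number called the same difference (adjusted p = 0.0204).

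Trp53 overlapped between the cell types, at 48.2, 46.8 and 52.5 FPKM in PMN-MDSCs, with a log2 difference of 0.13 (95% interval -0.06 to 0.31, adjusted p = 0.248). After quantile normalisation it was 0.33 and was called (adjusted p = 0.00563). Bbc3 overlapped too (log2 difference -0.02, 95% interval -0.29 to 0.25, adjusted p = 0.908). Phlda3 was at 0.634, 0.272 and 0.362 FPKM in PMN-MDSCs, or 16 reads against 18 in WT Mo-MDSCs, and a difference was not detectable at this depth (ratio 0.951, exact 95% interval 0.458 to 1.99).

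Of the 52 other pathway genes tested between the cell types, 23 were called, 16 lower and 7 higher in WT Mo-MDSCs. That is 30.8% called lower, beside 20.6% of all genes, and 13.5% called higher, beside 18.5% of all genes. The median log2 difference of the 52 was 0.09 and that of all genes 0.01. With the replicate number as a covariate, 33 of the 52 were called, and so were 6584 of all 11491 genes, against 4492 without it. Plk2 passed the filter through the PMN-MDSC libraries alone. Without such genes, 15 of 51 were called lower (29.4%, beside 20% of all genes left).

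Of 7 arrest targets tested, 5 were lower in WT Mo-MDSCs (71.4%, beside 20.6% of all genes). The gene Cdkn1a was the 1 called higher (14.3%, beside 18.5% of all genes). Without Plk2, 4 of 6 were lower (66.7%, beside 20% of all genes left). Gadd45a, which encodes a growth arrest and DNA damage protein, was at 105.3, 89.4 and 115.7 FPKM in PMN-MDSCs and at 12.6, 22.5 and 17.0 FPKM in WT Mo-MDSCs (log2 difference -2.60, adjusted p = 0.000126). Cdkn1a ran the other way, at 2.95, 1.83 and 2.40 FPKM in PMN-MDSCs against 8.18, 6.46 and 8.04 FPKM in WT Mo-MDSCs (log2 difference 1.64, adjusted p = 0.000667). Neither gene's groups overlapped, so genes of the same arrest list moved in opposite directions. The kinase gene Plk2 fell by 2.52 on the log2 scale. The antiproliferative factor Btg2 fell by 1.05, Sfn, which encodes 14-3-3 sigma, by 0.94, and the kinase gene Plk3 by 0.44.

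The death targets were divided, with 3 of 10 lower and 3 higher in WT Mo-MDSCs, or 30% each way, beside 20.6% and 18.5% of all genes. The death receptor gene Fas was at 33.1, 30.5 and 38.3 FPKM in PMN-MDSCs and at 9.78, 9.53 and 9.99 FPKM in WT Mo-MDSCs, a log2 difference of -1.78 (adjusted p = 2.77e-05). Trp53inp1, a p53 cofactor gene, fell by 1.14 and Bid, a BH3-only gene, by 0.88. Siva1 was higher by 0.48 and the nuclease gene Aen by 0.41. Of the 6 DNA repair targets, 2 were called lower and 2 higher (33.3% each way). Xpc, a damage sensor gene, fell by 1.18 and Rrm2b, a ribonucleotide reductase subunit gene, by 0.65, while the endonuclease gene Ercc5 rose by 0.77 and the translesion polymerase gene Polk by 0.69.

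Of the 5 other genes that restrain p53, 3 were called lower and 1 higher (60% and 20%, beside 20.6% and 18.5% of all genes). Of the 10 that activate it, 1 was called lower (10%). The ubiquitin ligase gene Rchy1 fell by 0.84 and the acetyltransferase gene Ep300 by 0.43, and Mdm4, which encodes a partner of Mdm2 in restraining p53, was higher by 0.47. The restraint genes Mdm2 and Mdm4 thus lay on opposite sides in WT Mo-MDSCs. Of the remaining lists, Cd82, a tetraspanin gene, fell by 0.93 and the epoxide hydrolase gene Ephx1 by 0.53. In the same libraries, the summed neutrophil, monocyte, B cell and macrophage markers did not overlap between the cell types. Called lower in WT Mo-MDSCs were 5 of 8 neutrophil, 2 of 5 B cell and 4 of 7 macrophage markers. These were 62.5%, 40% and 57.1%, beside 20.6% of all genes. Called higher were 5 of 7 monocyte markers (71.4%, beside 18.5% of all genes). These differences moved with those of Sesn2 and Mdm2 as well, and the part of cell type composition in them was not tested.

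**Figure D3:**
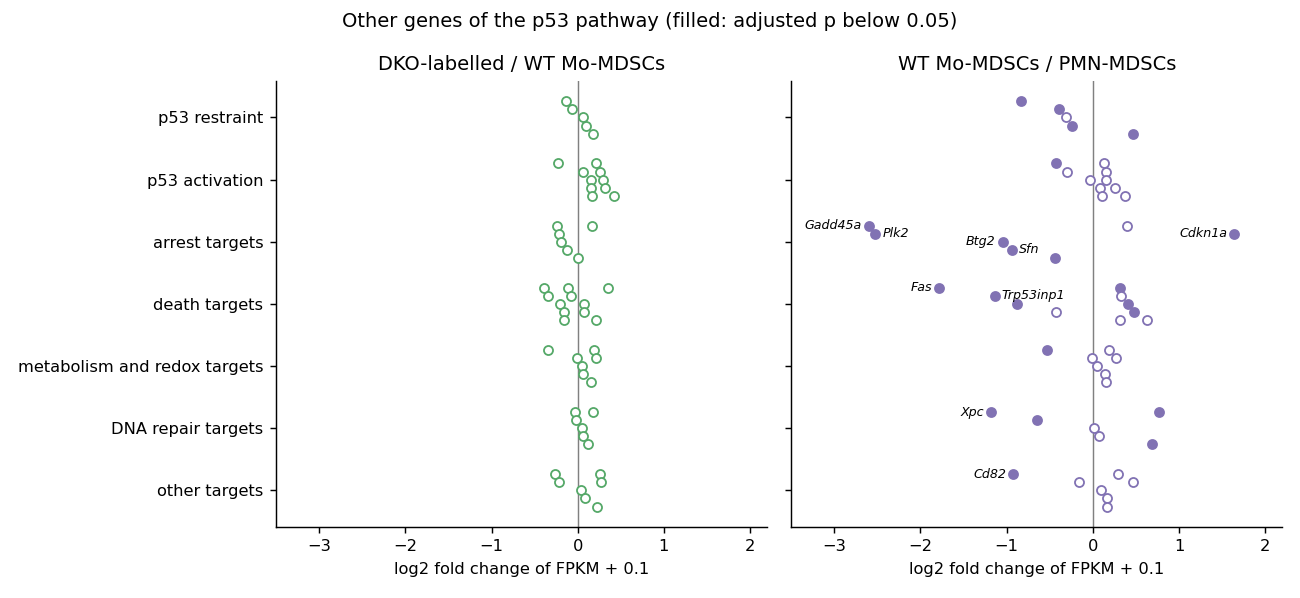
Log2 fold change of FPKM + 0.1 (x axis) of the other p53 pathway genes that passed the filter, in rows by role, for DKO-labelled against WT Mo-MDSCs (left) and WT Mo-MDSCs against PMN-MDSCs (right). Filled points passed an adjusted p below 0.05: 0 on the left and 23 on the right, from -2.60 for Gadd45a to 1.64 for Cdkn1a.

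Sesn2 is also a gene of the integrated stress response, in which the transcription factor Atf4 switches on its own set of targets. Of 7 genes of that response, Sesn2 included, 3 were lower in Mo-MDSCs of WT mice (42.9%, beside 20.6% of all genes) and none was higher, with a median log2 difference of -1.57. Sesn2, for which the list was drawn up, is 1 of the 3 and is itself the median. Chac1, which encodes a glutathione-degrading enzyme, was at 9.79, 9.42 and 12.0 FPKM in PMN-MDSCs and at 1.02, 1.26 and 1.66 FPKM in WT Mo-MDSCs (log2 difference -2.92, adjusted p = 5.45e-05). Ddit3, which encodes the transcription factor Chop, was at 39.9, 70.1 and 57.1 FPKM against 14.9, 22.0 and 16.4 FPKM (log2 difference -1.63, adjusted p = 0.00158). Neither gene overlapped between the cell types. Atf4 itself was at 112.0, 124.4 and 117.6 FPKM against 107.5, 106.6 and 101.9 FPKM and was not called. Trib3 had a log2 difference of -1.72 with overlapping groups (adjusted p = 0.0943). None of the 7 was called between DKO-labelled and WT Mo-MDSCs (limma), and none had an unadjusted p below 0.05.

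**Figure D4:**
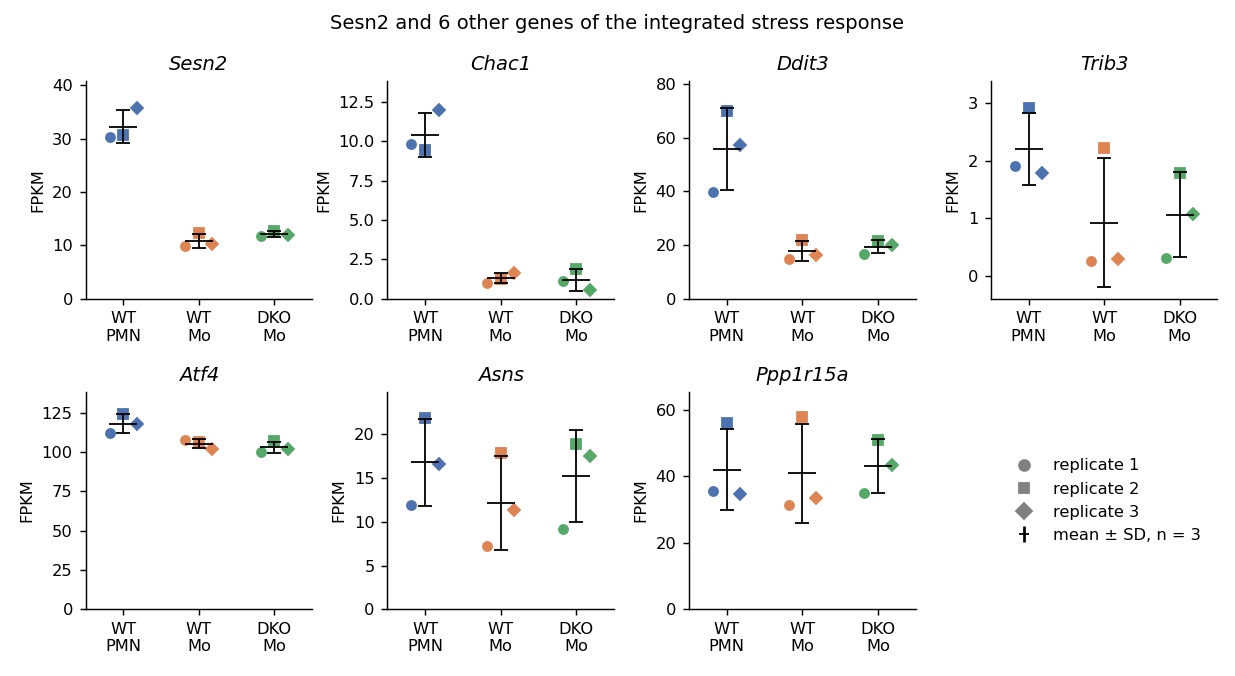
FPKM (y axis) of Sesn2 and 6 other genes of the integrated stress response in each library, with points for replicates and bars for the mean ± SD of each group (n = 3). Sesn2, Chac1 and Ddit3 are higher in all PMN-MDSC libraries than in any other library, and Asns, Ppp1r15a and Trib3 are highest in replicate 2 of each group.

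Of the 9 paralogues of the members listed, 6 were tested between the cell types, and 4 were lower in WT Mo-MDSCs (66.7%, beside 20.6% of all genes): Ccng2 fell by 0.87, Zmat1 by 0.84, Phlda1 by 0.81 and Zmat2 by 0.31 on the log2 scale. The sestrin paralogue Sesn3, at 8.50 to 10.3 FPKM in WT Mo-MDSCs and 9.52 to 15.6 FPKM in PMN-MDSCs, was not called. The p53 paralogue Trp63 was listed at 0 in 8 libraries and Trp73 was at 0.0471 to 0.218 FPKM over all 9. None of the 6 tested was called in the DKO-labelled libraries, and none had an unadjusted p below 0.05.

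The genes whose profile over the 9 libraries was most like that of each member were found by the root mean square difference of mean-centred log2 values among 11288 genes. The nearest to Sesn2 were Tbc1d14, Por and Usp32 (0.095 to 0.12), and the nearest to Bbc3 were Ndrg1, Adssl1 and Bad (0.088 to 0.10), of which Bad encodes another BH3-only protein. The nearest to Mdm2 was Herc4 (0.034), to Zmat3 Upf3b (0.043) and to Trp53 Sbf1 (0.046). The profiles themselves varied by an SD of 0.75 for Sesn2, 0.34 for Bbc3 and 0.15 to 0.22 for the other members.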

How the data were processed

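RNA of 9 libraries was sequenced from single ends after a strand-specific mRNA protocol, as the study's methods state. The authors deposited FPKM values per gene symbol, 1 file per library. Per the labels, reads were mapped to mm10 with TopHat2 2.0.13, Bowtie2 2.2.3 and SAMtools 0.1.19, and FPKM came from Cuffnorm 2.2.1. The annotation, the scaling between libraries and total reads are not given in the sources used here. FPKM are not counts, so values were tested as log2(FPKM + 0.1) with limma 3.58.1 (R 4.3.3; moderated variances with a trend, each pair of groups fitted on its own) over genes that reached 1 FPKM in 3 or more of the 6 libraries, with Benjamini-Hochberg adjustment over all genes tested. Differences are on the log2(FPKM + 0.1) scale, which understates the change of low genes. A gene was called at an adjusted p below 0.05. The study states over 2-fold for Mo-MDSCs against PMN-MDSCs and under 0.75-fold for DKO against WT, each with p below 0.05. Here the p was the unadjusted one of limma, and the opposite directions were added as mirror images. Phlda3 and Cdkn2a were below the filter and were taken from a fit without it. Exact permutation tests were two-sided. The procedure was tested on simulated data.

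The members, the gene lists and the tests were chosen with earlier results of these data known. Named genes were the members, the deleted genes, up to 20 called pathway genes per comparison with the largest differences and without overlap between groups, and the nearest profiles (3 per member), of which 1 is not reported here. The older symbols Lrdd, 9630033F20Rik, Rfwd2 and Emr1 stood for Pidd1, Tigar, Cop1 and Adgre1.

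Same-numbered WT Mo-MDSC and PMN-MDSC libraries deviated together from their group means (correlations across genes of 0.295, 0.483 and 0.200). Their replicate numbers were therefore read as a pairing. The library numbers in the labels also run in sequence across all groups within each replicate number, but the labels state no pairing. The values reported come from the unblocked fit all the same. The blocked value is given for Bbc3 and Mdm2 and where it changed a call of a member. Intervals on reads are exact at 95% and cover counting error only. Gene coordinates are from GENCODE M21 (GRCm38, the build of mm10) and start site windows from RefSeq.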

Additional observations from a re-analysis of the deposited data

How the results depend on the processing

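Each difference was recomputed under 16 or 17 alternatives (another pseudocount, no filter or a stricter one, quantile or median-of-ratios scaling, all groups in 1 fit, unmoderated variances, no trend, a replicate block, replicates 2 and 3 only, and each library left out). The numbers of members and pathway genes called between DKO-labelled and WT Mo-MDSCs were 0 in all of them. Bbc3 stayed lower and uncalled, from -0.71 to -0.43 (adjusted p from 0.136 to 0.637), and Sesn2 stayed called between the cell types (adjusted p from 3.57e-06 to 0.00467). Between the cell types 1 to 3 members were called: 1 in replicates 2 and 3 only, 1 to 2 with a library left out, 3 with the block (Ccng1 gained) and 3 without a trend in the variances (Zmat3 gained). The number of pathway genes called ranged from 17 in replicates 2 and 3 only to 33 with the block. Signs turned where a difference was near 0: Zmat3 between the Mo-MDSC groups after quantile normalisation (-0.0077) and with a library left out (-0.016 to 0.064), Ccng1 between the same groups with a library left out (-0.059 to 0.094), and, between the cell types with a library left out, Bbc3 (-0.11 to 0.066) and Phlda3 (-0.35 to 0.22, and 0.033 in replicates 2 and 3 only). The cause was not tested. The replicate block was not taken as a pairing for the Mo-MDSC groups, where the correlations of same-numbered libraries were 0.348, 0.226 and -0.070 and 4 of 6 libraries correlated best with their own number; with it, Bbc3 had an adjusted p of 0.230. Between the cell types the block changed no call of a member other than that of Ccng1. Few reads limit what can be said of Phlda3.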
